A study of Picea abies with 36 samples.

Results

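PaERF115-like (MA_10274g0010) and PaWIND1-like (MA_98464g0010) are a pair of AP2/ERF transcription factor genes of Norway spruce (Picea abies), and their read counts are described here across hormone-treated seedling stems. They were chosen by name, as the spruce genes that the study calls after the Arabidopsis wound and regeneration factors ERF115 and WIND1, so that 2 of the 70736 genes in the count table are described. Both passed the filter on low counts and were among the 38732 genes tested. The RNA came from the middle hypocotyl, the stem between root and cotyledons, of wild-type seedlings from 1 seed source (FP-518 TreO G7 Söregärde). A lanolin paste was applied with IAA (indole-3-acetic acid, an auxin), with BAP (6-benzylaminopurine, a synthetic cytokinin), or with both (BAP+IAA), other seedlings were mock treated, and the stem was collected after 5, 10 and 15 days. The labels and methods give 50 mM IAA and 135 mM BAP, but a figure legend of the study gives the BAP dose in µM, so the BAP dose is uncertain. The labels name no cut at the treated stem. Each of the 12 groups had 3 libraries, each from several pooled plants, which the study calls biologically independent.

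AP2/ERF proteins are plant transcription factors that bind DNA through a shared AP2 domain, and many of them respond to ethylene, wounding or stress. In Arabidopsis, ERF115 is made in cells next to dead or damaged cells, works with the GRAS-domain protein PAT1, and promotes the divisions that replace lost stem cells. WIND1 is induced at Arabidopsis wound sites, where it promotes dedifferentiation and the growth of callus, the mass of dividing cells that seals a wound. These roles are known from Arabidopsis and not from spruce, and the names rest on similarity only. The study's ortholog table annotates PaERF115-like as "ERF114-like" and pairs it with AT5G13330, a locus of the ERF family that is also known as RAP2.6L, so its match to Arabidopsis ERF115 itself is uncertain. It annotates PaWIND1-like as "RAP2-13-like" and pairs it with AT1G78080, the WIND1 locus, which is also known as RAP2.4.

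The ends of the PaERF115-like coding sequence are given by the gene-specific parts of the primers with which the study cloned it. Their match to the gene model MA_10274g0010, to which the counts refer, was not checked. Both are written on the sense strand, 5′ to 3′, with the start codon in capitals, and the end lies before the stop codon.
PaERF115-like start: ATGgcgagcaagacagatc
PaERF115-like end: ttggcactgcccagatctt

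Values below are counts, or CPM, the usual scaling of counts to library size, with TMM-adjusted library sizes. Total counts were 13188942 to 23110495 per library. For a count of 0 a floor of 3 counts was used, which is about its 95% upper limit. In 1 library, mock day 5 replicate 2, the shallowest mock library of that day, 3 counts stood for 0.220 CPM. The bounds below take 3 counts in sum over the mock libraries of day 5, a lower level. Such floors cover counting error only. A gene was called where edgeR's quasi-likelihood test gave a Benjamini-Hochberg adjusted p below 0.05 over all genes tested and the log2 fold change was above 1 or below -1. Over all genes, 23.5%, 18.7% and 15.9% were called under IAA against the mock on days 5, 10 and 15. BAP had 8.85%, 12.9% and 15.2% called on these days, and BAP+IAA had 21.2%, 21.6% and 22.6%. Across the 36 libraries, treatment took 77.1% of the variance of log2 CPM of PaERF115-like and libraries within a group took 3.59%. For PaWIND1-like these shares were 47.0% and 31.0%, each taken of that gene's own variance. Its biological coefficient of variation was 54.9%, against 30.9% for PaERF115-like and 20.9% in common over all genes.

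PaERF115-like was nearly silent in mock stems and was higher under each of the hormone treatments on each day, with all 9 comparisons called. The first question was what auxin alone did. On day 5 the IAA libraries held 93, 169 and 120 counts of PaERF115-like, against 0, 0 and 0 in the mock libraries. IAA was thus at least 119-fold higher, taking the IAA counts as exact and the mock as 3 counts in sum, the floor used throughout (edgeR adjusted p = 5.36e-09). An exact binomial interval of the summed counts, which covers counting error in both groups, had a 95% lower limit of 96.5-fold. On day 10 the IAA libraries had 10.4, 8.60 and 15.4 CPM, against 0.888, 0.473 and 0.108 CPM in mock. On day 15 they had 12.2, 13.5 and 7.89 CPM, against 0.119, 0.182 and 0.0720 CPM in mock. The groups did not overlap on any day, and the log2 fold change under IAA was 4.62 (SE 0.51, edgeR adjusted p = 7.29e-08) on day 10 and 6.38 (SE 0.62, edgeR adjusted p = 1.75e-08) on day 15. The mock of day 15 rests on 6 counts in all, so that the ratio of summed counts, 89.0, had a 95% interval from counting alone of 40.7 to 244. Without mock day 10 replicate 1, the highest mock library, the change under IAA on day 10 was 5.36.

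BAP alone also gave a higher level of PaERF115-like. The BAP libraries of day 5 held 2, 1 and 12 counts, against none in the mock libraries of that day. BAP was at least 5.00-fold higher on day 5 by the same floor, with a 95% lower limit from counting of 3.58-fold (edgeR adjusted p = 0.0247), and 12 of the 15 counts lay in 1 library, BAP day 5 replicate 3. Without that library 3 counts remained under BAP, no more than the floor, so no fold can be given, and the adjusted p was 0.232. For the same comparison without any 1 of the mock libraries of day 5 it was 0.0554 to 0.0751, so the call of day 5 rests on single libraries. The BAP libraries had 1.92, 1.95 and 5.70 CPM on day 10 and 6.59, 5.35 and 8.59 CPM on day 15. None of these 6 libraries overlapped the mock of its day, and the log2 fold change was 2.78 (SE 0.54, edgeR adjusted p = 0.000307) on day 10 and 5.67 (SE 0.63, edgeR adjusted p = 1.35e-07) on day 15. The change on day 10 was 2.06 without BAP day 10 replicate 3 and 3.50 without mock day 10 replicate 1, and it stayed called without either.

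The highest levels of PaERF115-like in the series were those of the combined treatment on days 15 and 10. BAP+IAA libraries had 5.89, 4.10 and 3.48 CPM on day 5, 13.5, 17.8 and 15.3 CPM on day 10, and 26.3, 18.7 and 20.7 CPM on day 15. Against the mock, BAP+IAA was at least 69.5-fold higher on day 5 by the floor (95% lower limit from counting 56.1-fold, edgeR adjusted p = 8.31e-08). Its log2 fold change was 5.06 (SE 0.51, edgeR adjusted p = 9.75e-09) on day 10 and 7.35 (SE 0.61, edgeR adjusted p = 3.17e-10) on day 15. Without mock day 10 replicate 1 the change of day 10 was 5.80. By the fitted change of day 15, PaERF115-like ranked 308 of 38732 genes from the top under BAP+IAA, 602 under IAA and 384 under BAP.

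**Figure D1:**
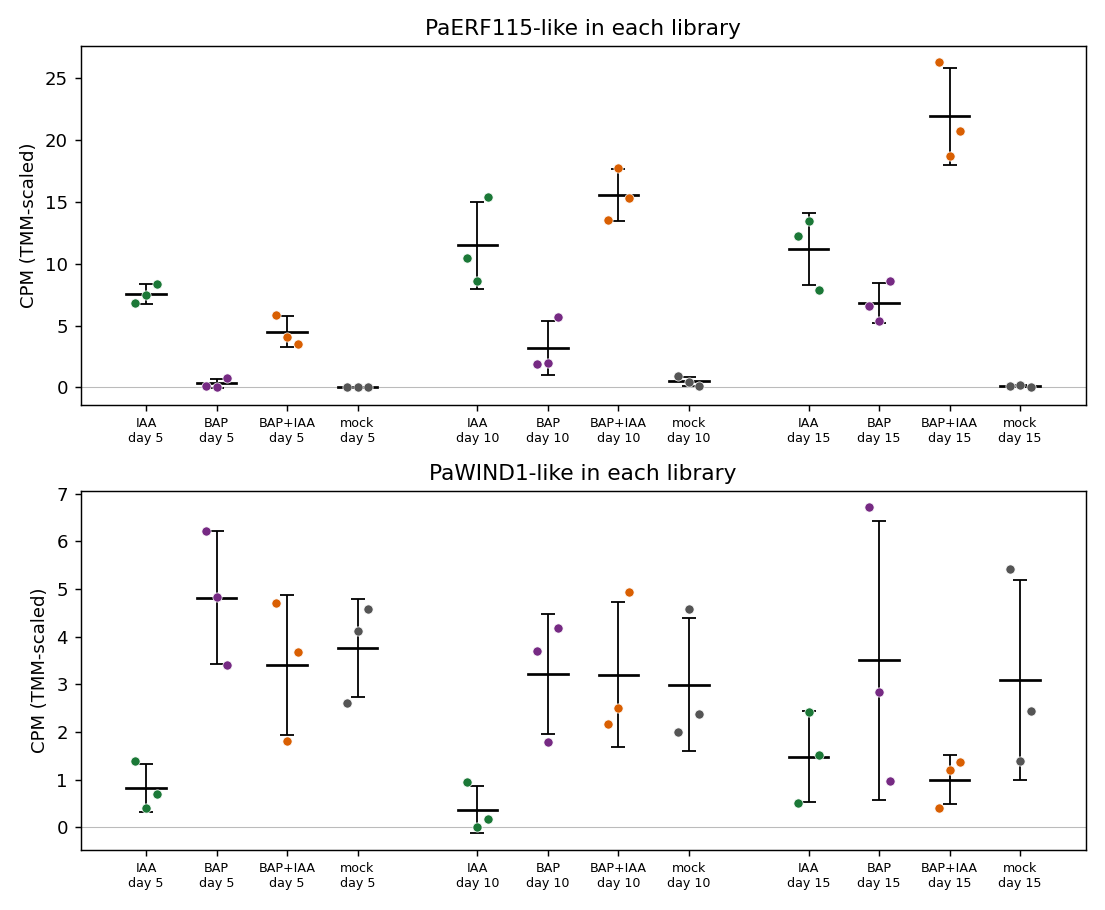
CPM (TMM-scaled) of PaERF115-like (top) and PaWIND1-like (bottom) in each library, by treatment and day. Points are libraries, and bars are the mean and SD of 3 libraries. Mock libraries of PaERF115-like lie between 0 and 0.888 CPM on all days, and the IAA libraries of PaWIND1-like lie below the mock libraries of their day on days 5 and 10 and overlap them on day 15.

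Ordered by mean level, the 12 groups of PaERF115-like ran from 21.9 ± 3.92 CPM (SD, n = 3) under BAP+IAA on day 15 to 0 in the mock of day 5. BAP+IAA on day 10 came next to the top with 15.5 ± 2.11 CPM and did not overlap the group above it. IAA followed with 11.5 ± 3.52 CPM on day 10, 11.2 ± 2.93 CPM on day 15 and 7.54 ± 0.807 CPM on day 5. Below these stood BAP on day 15 (6.84 ± 1.63 CPM), BAP+IAA on day 5 (4.49 ± 1.25 CPM) and BAP on day 10 (3.19 ± 2.18 CPM). From BAP+IAA on day 10 down to BAP on day 10, each group overlapped the next, and BAP on day 10 did not overlap the groups below it. The lowest 4 groups were the mock of day 10 (0.490 ± 0.390 CPM), BAP on day 5 (0.320 ± 0.382 CPM), the mock of day 15 (0.124 ± 0.0552 CPM) and the mock of day 5. The mock of day 5 did not overlap the mock of day 15, the group just above it.

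The average over days gave the same direction by an exact test. In a two-sided exact permutation test of log2 CPM within days, 9 of 9 libraries of each hormone treatment lay above the mock mean of their day, and p was 0.00025 in each of the 3 cases, the smallest that the 8000 arrangements can give (0.00025 after adjustment over the 3 hormones). edgeR also called all 3 averages of PaERF115-like, where 20.8%, 15.3% and 24.2% of all genes were called under IAA, BAP and BAP+IAA. Fitted averages are not given, since they include the mock of day 5 at 0. For the same reason any count placed a library of day 5 above the mock mean, and the BAP libraries held 2, 1 and 12.

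PaWIND1-like ran the other way under auxin. It was present in all 9 mock libraries, at 1.40 to 5.43 CPM, and was lower in the stems treated with IAA alone. On day 5 the IAA libraries had 1.39, 0.397 and 0.700 CPM, from 19, 9 and 10 counts, against 2.61, 4.11 and 4.58 CPM in mock. The groups did not overlap, and PaWIND1-like fell by 2.24 on the log2 scale (SE 0.74, edgeR adjusted p = 0.0138). On day 10 the IAA libraries had 0.943, 0 and 0.167 CPM, from 14, 0 and 3 counts, against 2.00, 4.59 and 2.38 CPM in mock. It fell by 3.08 on the log2 scale on that day (SE 0.83, edgeR adjusted p = 0.00397), again without overlap. On day 15 the IAA libraries had 0.503, 2.41 and 1.51 CPM, against 5.43, 1.40 and 2.45 CPM in mock. These groups overlapped, and the log2 fold change of -1.07 (95% interval -2.49 to 0.35, edgeR adjusted p = 0.249) was not called.

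Single libraries weighed on these values. Without IAA day 5 replicate 2, the lowest of that group, the change of day 5 was -1.86 and no longer called (edgeR adjusted p = 0.0743). Without IAA day 10 replicate 1, the change of day 10 was -5.02 and without replicate 2 it was -2.45, both still called. That of day 15 ranged from -1.61 to -0.37 with 1 library left out and was called in none of these fits. Over the days, PaWIND1-like under IAA had a log2 fold change of -2.13 against mock (SE 0.44, edgeR adjusted p = 0.000133), or -2.78 without IAA day 10 replicate 1. In the exact permutation test within days, 9 of 9 IAA libraries lay below the mock mean of their day (two-sided exact p = 0.001, adjusted over the 3 hormones 0.003). The change between the responses of day 15 and day 5 was 1.17 (95% interval -0.91 to 3.25, edgeR adjusted p = 0.499), so a smaller fall on day 15 than on day 5 was not shown.

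Under cytokinin alone PaWIND1-like was not called on any day. BAP libraries had 6.22, 4.83 and 3.41 CPM on day 5, 3.69, 1.79 and 4.18 CPM on day 10, and 6.71, 2.83 and 0.975 CPM on day 15. They overlapped the mock on each day, with log2 fold changes of 0.35 (95% interval -0.96 to 1.67), 0.10 (95% interval -1.25 to 1.45) and 0.18 (95% interval -1.16 to 1.52) on days 5, 10 and 15. The edgeR adjusted p was 0.749, 0.940 and 0.875. These intervals leave room for a rise of more than 2-fold on each day and for a fall of more than 2-fold on days 10 and 15. In the average of days the change under BAP was 0.21 (95% interval -0.56 to 0.98, edgeR adjusted p = 0.682).

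With both hormones the level of PaWIND1-like lay near the mock on days 5 and 10 and below it on day 15. BAP+IAA libraries had 4.71, 1.81 and 3.68 CPM on day 5 and 2.16, 2.51 and 4.94 CPM on day 10, overlapping the mock on both days. The log2 fold changes were -0.15 (95% interval -1.48 to 1.18, edgeR adjusted p = 0.877) and 0.11 (95% interval -1.24 to 1.46, edgeR adjusted p = 0.913). On day 15 they had 0.411, 1.19 and 1.38 CPM, against 5.43, 1.40 and 2.45 CPM in mock, so that the groups just did not overlap. The change of -1.65 (95% interval -3.15 to -0.16, edgeR adjusted p = 0.0658) was not called, but it was called by DESeq2 (adjusted p = 0.0432) and without mock day 15 replicate 2, the lowest mock library (-2.00, edgeR adjusted p = 0.0376). The average of days was -0.56 (95% interval -1.37 to 0.24, edgeR adjusted p = 0.212).

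**Figure D2:**
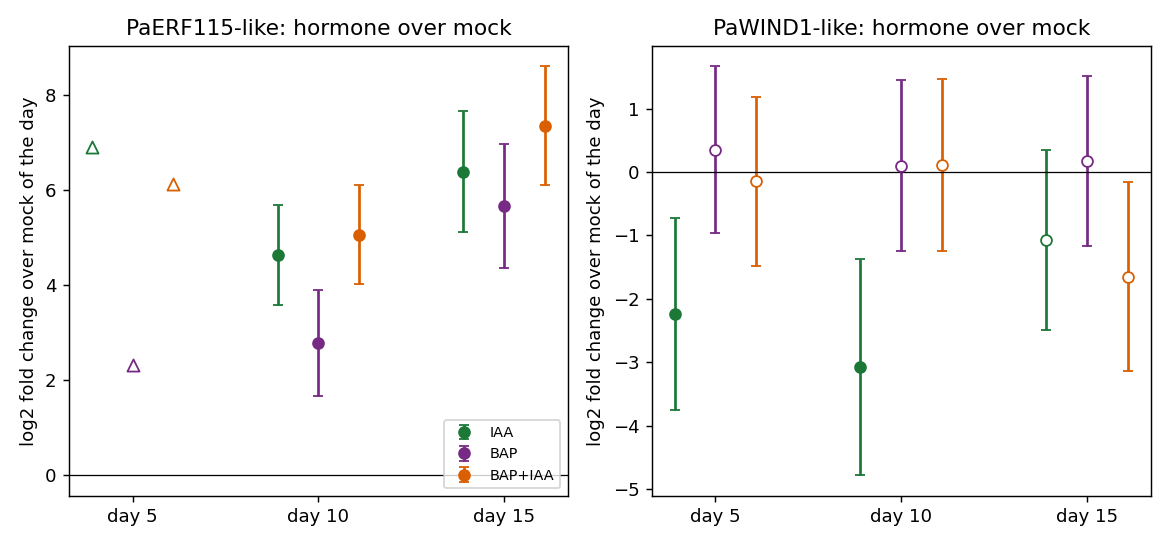
Log2 fold change over the mock of the day of PaERF115-like (left) and PaWIND1-like (right) under IAA, BAP and BAP+IAA. Circles are fitted values with 95% intervals, filled where called, and open triangles on day 5 of PaERF115-like are lower bounds, since the mock held 0 counts. All values of PaERF115-like are above 0, and the called values of PaWIND1-like are those of IAA on days 5 and 10, at -2.24 and -3.08.

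By mean level the order of the PaWIND1-like groups ran from BAP on day 5 (4.82 ± 1.40 CPM, SD, n = 3) to IAA on day 10 (0.370 ± 0.503 CPM). The lowest 4 groups were the IAA groups and BAP+IAA on day 15 (0.994 ± 0.513 CPM), and the other 8 lay between 2.99 and 4.82 CPM. Each group overlapped its neighbour in that order, so no single step between neighbours exceeded the spread of the libraries.

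The next question was how the combined treatment compared with each single hormone. For PaERF115-like, BAP+IAA stood close to IAA and above BAP. BAP+IAA against IAA gave log2 fold changes of -0.76 (95% interval -1.55 to 0.04, edgeR adjusted p = 0.228) on day 5, 0.44 (95% interval -0.31 to 1.18, edgeR adjusted p = 0.409) on day 10 and 0.97 (95% interval 0.22 to 1.72, edgeR adjusted p = 0.0464) on day 15. The last passed the p threshold but not the fold threshold, although the libraries of the groups did not overlap (18.7 to 26.3 CPM under BAP+IAA and 7.89 to 13.5 CPM under IAA). With library size alone in place of TMM it was 1.02 and called. Over all genes, 6.52%, 15.5% and 16.4% were called in this comparison on days 5, 10 and 15.

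Against BAP, BAP+IAA was higher in PaERF115-like on each day, by 3.78 (SE 0.56, edgeR adjusted p = 1.42e-05), 2.28 (SE 0.40, edgeR adjusted p = 0.000155) and 1.68 (SE 0.37, edgeR adjusted p = 0.00283) on the log2 scale, where 11.9%, 9% and 6.68% of all genes were called. IAA was higher than BAP on day 5 (4.54, SE 0.54, edgeR adjusted p = 2.75e-07) and on day 10 (1.85, SE 0.40, edgeR adjusted p = 0.000576). On day 15 the difference of IAA from BAP was 0.71 (95% interval -0.06 to 1.48, edgeR adjusted p = 0.164) and was not called. The background for IAA against BAP was 16.9%, 18.2% and 16.3%. Without BAP day 5 replicate 3 the 2 differences of day 5 from BAP were 5.43 for BAP+IAA and 6.19 for IAA. Without BAP day 10 replicate 3 those of day 10 were 3.01 and 2.58.

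For PaWIND1-like the combined treatment was called different from IAA on day 10 only, and was higher there. BAP+IAA against IAA gave 2.09 (95% interval 0.57 to 3.61, edgeR adjusted p = 0.0617) on day 5, which was not called, although the libraries did not overlap (1.81 to 4.71 CPM under BAP+IAA and 0.397 to 1.39 CPM under IAA). It was called by DESeq2 (2.05) and in a fit of the libraries of day 5 alone (edgeR adjusted p = 0.00990). On day 10 PaWIND1-like was higher under BAP+IAA than under IAA by 3.18 (SE 0.82, edgeR adjusted p = 0.00371), with 2.16 to 4.94 CPM under BAP+IAA and 0 to 0.943 CPM under IAA. This value was 5.13 without IAA day 10 replicate 1 and 2.59 without IAA day 10 replicate 2, and was called in both cases. On day 15 the difference was -0.58 (95% interval -2.14 to 0.98, edgeR adjusted p = 0.627).

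IAA was lower than BAP in PaWIND1-like on days 5 and 10, with log2 fold changes of -2.59 (SE 0.73, edgeR adjusted p = 0.00673) and -3.17 (SE 0.82, edgeR adjusted p = 0.00326). The change of day 5 was -3.19 without IAA day 5 replicate 1, and that of day 10 was -5.12 without IAA day 10 replicate 1 and -2.58 without IAA day 10 replicate 2. On day 15 it was -1.25 (95% interval -2.66 to 0.16, edgeR adjusted p = 0.182). BAP+IAA did not differ from BAP by a called change on any day, with -0.50 (edgeR adjusted p = 0.629), 0.01 (edgeR adjusted p = 1.00) and -1.83 (edgeR adjusted p = 0.0911) on days 5, 10 and 15. The last was called without BAP day 15 replicate 3 (-2.29, edgeR adjusted p = 0.0349).

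**Figure D3:**
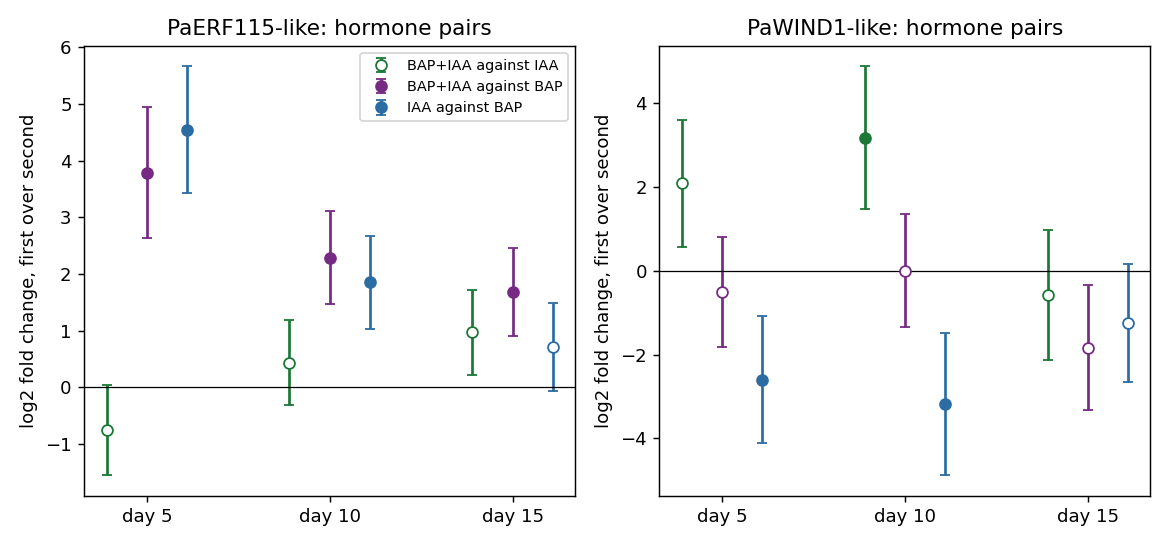
Log2 fold changes between hormone treatments on each day for PaERF115-like (left) and PaWIND1-like (right), with 95% intervals, filled where called. BAP+IAA against BAP was called for PaERF115-like on all 3 days, and BAP+IAA against IAA was called for PaWIND1-like on day 10, at 3.18.

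The interaction of the hormones asks whether BAP+IAA changed a gene by the sum of the log2 changes under IAA and under BAP. For PaERF115-like the log2 change under BAP+IAA was below that sum on all 3 days. Whether the CPM also fell short of a sum was not tested. The interaction was -2.34 (SE 0.66, edgeR adjusted p = 0.0178) on day 10 and -4.70 (SE 0.78, edgeR adjusted p = 0.000232) on day 15. On day 5, with the mock set to its floor of 3 counts, it was at most -3.10, taking the counts of the other groups as exact (edgeR adjusted p = 0.0159). Over all genes 7.68%, 8.45% and 6.64% had a called interaction on days 5, 10 and 15. That of day 5 was not called without BAP day 5 replicate 3 (edgeR adjusted p = 0.185) or by limma voom (adjusted p = 0.137). That of day 10 was not called without mock day 10 replicate 3 (-1.80, edgeR adjusted p = 0.0829), IAA day 10 replicate 3 (-2.07, edgeR adjusted p = 0.0509) or BAP day 10 replicate 3 (-1.63, edgeR adjusted p = 0.103), and was -3.07 without mock day 10 replicate 1. That of day 15 was called without any 1 library, at -5.06 to -4.48.

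For PaWIND1-like the interaction was 1.74 (95% interval -0.27 to 3.75, edgeR adjusted p = 0.250) on day 5, 3.08 (95% interval 0.89 to 5.28, edgeR adjusted p = 0.0534) on day 10 and -0.76 (95% interval -2.81 to 1.30, edgeR adjusted p = 0.726) on day 15. None was called by edgeR over all libraries without a replicate block. The interaction of day 10 was called with a replicate block (3.23, edgeR adjusted p = 0.0442), by DESeq2 (3.05, adjusted p = 0.0190) and without IAA day 10 replicate 1 (5.03, edgeR adjusted p = 0.0107).

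Over time, PaERF115-like was called higher on later days where BAP was present. Under BAP its log2 change against day 5 was 3.30 on day 10 (SE 0.57, edgeR adjusted p = 0.00361) and 4.40 on day 15 (SE 0.55, edgeR adjusted p = 6.45e-06), where 1.59% and 10.5% of all genes were called. Without BAP day 5 replicate 3 these changes were 4.95 and 6.06, and without BAP day 10 replicate 3 the first was 2.57, and all remained called. Under BAP+IAA the changes were 1.80 (SE 0.38, edgeR adjusted p = 0.00338) and 2.29 (SE 0.39, edgeR adjusted p = 0.000118), where 3.62% and 8.46% were called. Under IAA they were 0.61 (95% interval -0.16 to 1.37, edgeR adjusted p = 0.238) and 0.57 (95% interval -0.20 to 1.34, edgeR adjusted p = 0.241) and not called, although 12.9% and 17.7% of all genes were.

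In mock stems 21 counts of PaERF115-like were found over the libraries of day 10 and 6 over those of day 15, against 0 on day 5. Neither difference from day 5 was called (edgeR adjusted p = 0.184 on day 10 and 0.371 on day 15), and the 95% lower limits of the ratios of summed counts, from counting alone, were 5.28 and 1.19. In these comparisons 0.0568% and 1.09% of all genes were called. DESeq2 called the change of day 10 (adjusted p = 0.0119). PaWIND1-like was not called between days under any treatment, and its largest time change was -1.78 under BAP+IAA between day 15 and day 5 (95% interval -3.27 to -0.30, edgeR adjusted p = 0.0789). Neither gene had a called difference between the responses of day 15 and day 5, where 8.43%, 1.25% and 3.18% of all genes had one under IAA, BAP and BAP+IAA.

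Within a library, the ratio of PaERF115-like to PaWIND1-like was higher under all 3 treatments than in mock. Levels of different genes were not compared, since gene lengths were not used here, but the log2 ratio of their counts (0.5 added to each) can be compared between libraries. Its mean over the days was 4.14 under IAA and 2.46 under BAP+IAA, with -1.05 for BAP, against -4.61 in mock. IAA differed from mock by 8.75, BAP by 3.56 and BAP+IAA by 7.08. The mock of day 5 held no count of PaERF115-like, so the sizes depend on the count added. With 2 and with 0.1 added in place of 0.5, the differences were 7.39 and 9.96 for IAA, 2.76 and 4.39 for BAP, and 6.03 and 8.00 for BAP+IAA. In each case 9 of 9 libraries lay above the mock mean of their day, and the two-sided exact permutation p was 0.00025, the smallest possible, before and after adjustment over the 3 hormones. With 2 added, the exact permutation p for BAP was 0.0015. Under BAP the difference was 2.50 on day 5 (1.12 with 2 added and 4.57 with 0.1 added), 2.71 on day 10 and 5.48 on day 15. The PaWIND1-like changes under BAP given above were 0.35, 0.10 and 0.18 on those days, and under BAP+IAA they were -0.15 and 0.11 on days 5 and 10, none of them called.

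**Figure D4:**
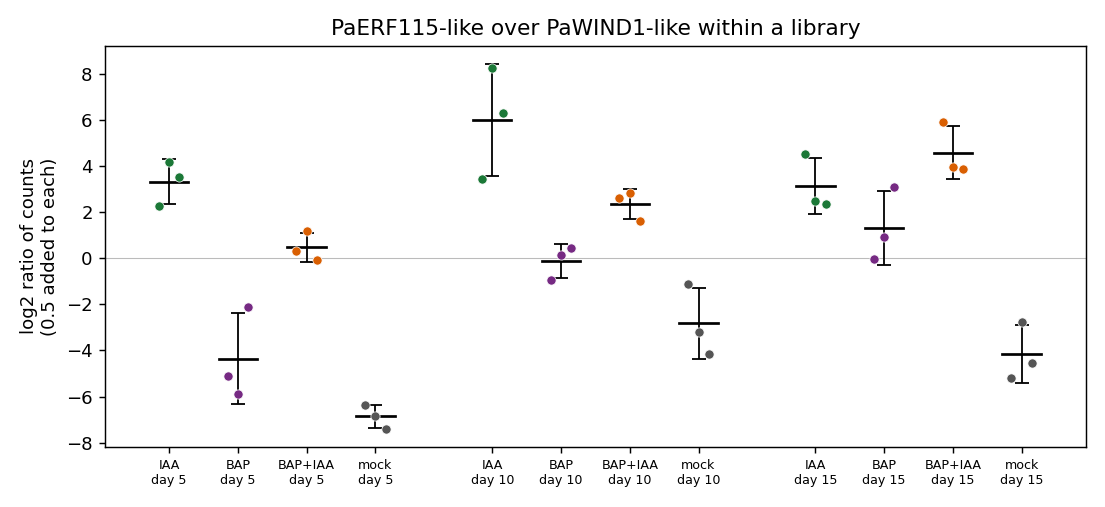
Log2 ratio of PaERF115-like to PaWIND1-like counts within each library (0.5 added to each count), by treatment and day. Points are libraries and bars are the mean and SD of 3 libraries. The mean ratio ran from -6.86 in the mock of day 5 to 5.99 under IAA on day 10.

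The study pairs an ID with the names of a further wound gene and a callus gene, PaPAT1-like (MA_10426489g0020), named after the GRAS-domain partner of Arabidopsis ERF115, and PaWOX13-like (MA_116716g0010), named after a homeobox factor that promotes callus in Arabidopsis. PaPAT1-like was higher under BAP+IAA on days 10 and 15, with 19.4 ± 2.12 CPM under BAP+IAA and 8.09 ± 0.538 CPM in mock on day 10, and 17.2 ± 1.99 CPM under BAP+IAA and 8.58 ± 1.15 CPM in mock on day 15 (SD, n = 3 each). Its log2 fold changes there were 1.26 (edgeR adjusted p = 6.25e-06) and 1.00 (edgeR adjusted p = 0.000126, just past the fold threshold). The other 7 comparisons of PaPAT1-like with mock were not called. PaERF115-like was therefore called with PaPAT1-like in 2 of 9 comparisons and without it in the other 7. PaWOX13-like was higher under IAA on all 3 days, by 2.24, 1.64 and 1.34 on the log2 scale (edgeR adjusted p = 2.91e-06, 0.000189 and 0.00168), and in the combined treatment on days 5 and 10, by 1.84 and 1.08 (edgeR adjusted p = 5.95e-05 and 0.00889). It was not called under BAP.

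Of 12 other AP2/ERF genes in the study's tables, none was called lower than mock in any of the 9 daily comparisons. Over all genes tested, 5.81% to 12.2% were called lower in these comparisons, so none of 12 in a single comparison lay near that share. Under IAA 5, 5 and 4 of the 12 were called higher on days 5, 10 and 15, with BAP 3, 1 and 2 were, and with the combined treatment 6, 5 and 4. Over all genes tested, 11.3%, 10.1% and 9.86% were called higher under IAA on these days, with 3.04%, 4.99% and 7% for BAP and, for the combined treatment, 10.2%, 10% and 11.4%, so that the 1 of 12 under BAP on day 10 lay near the share over all genes. Their median log2 fold change lay between 0.68 and 2.09, against -0.02 to 0.02 over all genes tested. The study picked these genes from graft libraries and its tables were held only in part, so they are not a sample of the family. The gene most like PaERF115-like in its calls was MA_10031781g0010, annotated as an ethylene-responsive transcription factor 5-like, which was higher in all 9 comparisons. On day 5 MA_10031781g0010 had 12.2 ± 1.14 CPM under IAA, 4.24 ± 2.78 CPM under BAP and 42.8 ± 19.8 CPM under BAP+IAA, against 0.839 ± 0.183 CPM in mock (SD, n = 3 each). MA_3758g0010, annotated as ERF014-like, was called higher under IAA and BAP+IAA on all 3 days and not under BAP, with 4.68 ± 1.54 CPM under IAA and 0.253 ± 0.156 CPM in mock on day 15. MA_922309g0010, annotated as an ethylene-responsive transcription factor 2-like, was called higher under BAP on days 5 and 15 and under BAP+IAA on day 15, and not under IAA. On day 15 MA_922309g0010 had 3.59 ± 0.571 CPM with BAP and 2.75 ± 1.43 CPM with both hormones, against 0.140 ± 0.150 CPM in mock.

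The rest of the 12 split by hormone and day. MA_10431882g0010 (ERF017-like) and MA_116185g0010 (annotated as an ERF2 factor) were called higher on days 5 or 10 under treatments with IAA. Few counts lay behind the calls of MA_10431882g0010, with means of 0.272 to 0.441 CPM there, against 0 in mock on both days. MA_168025g0010 (ABR1) was called higher under IAA on day 5 and under BAP+IAA on days 5 and 10. Under BAP+IAA on day 10 ABR1 had 0.603 ± 1.05 CPM (SD, n = 3), from 0 to 1.81 CPM, against 0 in mock. Its level there came from a single library. MA_10432625g0010 (an AP2 domain factor) was called higher under BAP on day 5 and under BAP+IAA on days 5 and 15. On day 5 MA_10432625g0010 was low too, with 0 to 0.888 CPM under BAP, against 0 in mock. MA_10431706g0010 (an ethylene-responsive element binding factor) was called higher under IAA on days 10 and 15, MA_113446g0010 (ERF017-like) under IAA on day 15 and MA_94228g0010 (ERF003-like) under IAA on day 5. MA_121578g0010, annotated as ANT, and MA_10432204g0010, annotated after At4g13040, were called in none of the 9. MA_121578g0010 had log2 fold changes of -0.53, -0.49 and -0.62 under IAA on days 5, 10 and 15 (edgeR adjusted p = 0.00389, 0.00944 and 0.00150). Under BAP+IAA on day 5 it had -0.42 (edgeR adjusted p = 0.0231). These values passed the p threshold but not the fold threshold.

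**Figure D5:**
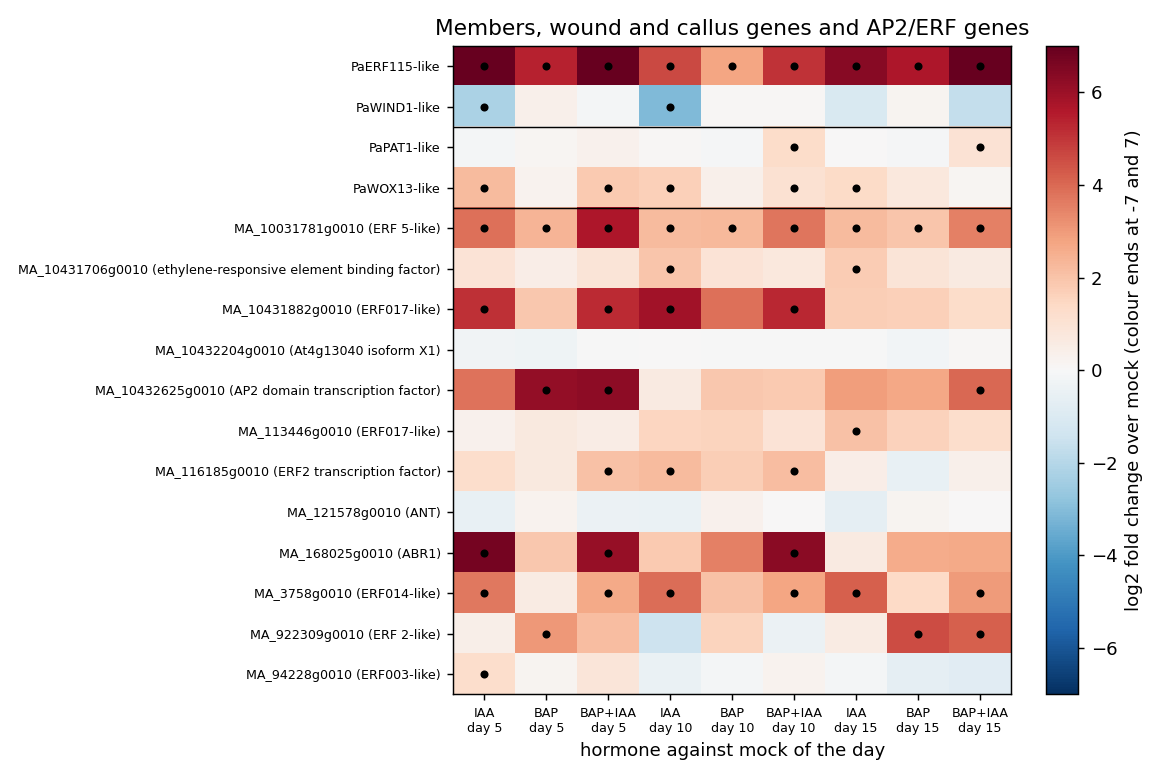
Fitted log2 fold changes over the mock of the day for PaERF115-like and PaWIND1-like (top), PaPAT1-like and PaWOX13-like (middle) and 12 AP2/ERF genes (bottom), with dots where a change was called. Fitted values against mock groups at 0, such as PaERF115-like on day 5, depend on the count added by the fit. PaERF115-like and MA_10031781g0010 carry dots in all 9 columns, and PaWIND1-like is the gene with dots on lower values.

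Beside these, the wider set of 64 transcription factors that the study followed through graft healing, 61 of which were tested, had 20, 21 and 20 genes called higher and 5, 3 and 2 called lower under IAA on days 5, 10 and 15. With BAP 5, 6 and 14 were higher and 12, 12 and 10 lower. The combined treatment had 15, 20 and 26 higher and 9, 8 and 9 lower. Beside the shares of all genes called higher, given above, 12.2%, 8.63% and 5.99% of all genes were called lower under IAA on days 5, 10 and 15, with 5.81%, 7.89% and 8.19% for BAP and, for the combined treatment, 11%, 11.5% and 11.2%. The study chose them on graft libraries. Of 6 genes annotated as auxin-related, 4 were higher than mock under IAA and 4 under BAP+IAA in the average of days, among them 3 indole-3-acetic acid-amido synthetases, enzymes that conjugate auxin to amino acids. Under BAP 1 of the 6 was higher and 1 lower. In these averages 11.2%, 6.31% and 11.8% of all genes were called higher under IAA, BAP and BAP+IAA, and 9.59%, 8.96% and 12.4% were called lower.

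The pattern of other genes over the 12 group means was set beside that of each gene as a description, over 32342 genes with a mean of at least 1 CPM. The 5 genes most like PaERF115-like had Pearson's r of 0.968 to 0.985. They were MA_9304g0020, MA_17966g0020 (annotated as a primary amine oxidase), MA_40048g0010, MA_205823g0010 (annotated as an MDIS1-interacting receptor kinase) and MA_501223g0010. Averaged over the days, their log2 fold changes under IAA were 2.57 to 6.28. Those under BAP were 1.15 to 3.13, and the combined treatment gave 2.37 to 6.50. Over the 36 libraries 3 of these 5 were again among the 5 most alike. The 5 most like PaWIND1-like were MA_873850g0010, MA_9271584g0010, MA_10434740g0010, MA_9265349g0010 and MA_19834g0010, with r of 0.916 to 0.943. Their averages under IAA were small, at -0.73 to -0.54, and none of the 5 was among the most alike over the 36 libraries. PaERF115-like and PaWIND1-like had r of -0.59 with each other over the 12 group means, and PaERF115-like had r of 0.52 with PaPAT1-like and 0.76 with PaWOX13-like. The 12 points come from 4 treatments followed over 3 days, so r describes the pattern only.

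Counts in a whole stem segment do not separate fewer cells of a type from less RNA in each cell. The 4 cell type marker genes fixed for this tissue were detected in all libraries. Their summed level was 103 to 144 CPM over the days in IAA groups, 102 to 138 CPM in BAP groups and 89.0 to 144 CPM in BAP+IAA groups, against 112 to 139 CPM in mock. PaCDKB2;2-like (MA_920994g0010), named after a kinase of dividing cells, was at 64.0 to 102 CPM in IAA groups, 78.0 to 112 CPM in BAP groups and 71.4 to 109 CPM in BAP+IAA groups, against 56.0 to 66.1 CPM in mock. Its edgeR adjusted p was below 0.05 in 8 of 9 comparisons with mock, with log2 fold changes of 0.35 to 0.76 in these, so that it missed the fold threshold and was not called. PaPRX66-like (MA_10431507g0020), a xylem peroxidase marker, was called higher in 7 of 9 comparisons with mock, whereas PaVND4-like (MA_6777g0010), a xylem identity marker, was called lower in 5 of 9 and was at 8.93 to 30.5 CPM under BAP+IAA, against 41.5 to 79.0 CPM in mock. PaAPL-like (MA_201937g0010), a phloem marker, was not called. PaPRX66-like, PaVND4-like and PaCDKB2;2-like thus moved with treatments that also moved PaERF115-like and PaWIND1-like, and their part in those results was not tested.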

How the data were processed

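RNA-seq libraries were made from 36 hypocotyl samples by a company (Novogene). The study describes the isolation of polyadenylated RNA for its graft libraries only. The authors removed ribosomal reads with SortMeRNA, filtered reads with fastp, mapped them to the spruce genome (STAR) and took reads per gene on the reverse strand (HTSeq). The deposited table holds these raw counts as whole numbers. How the authors treated reads with several alignments is not given in the sources used here, so close copies of either gene could share reads. No fold changes or p-values of the authors were used. All 36 columns were matched to samples by their names.

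The analysis used R 4.3.3 with edgeR 4.0.16, limma 3.58.1 and DESeq2 1.42.0. Genes were filtered with filterByExpr on the 12 groups (38732 of 70736 genes, 99.9% of counts), and library sizes were scaled with TMM (factors 0.952 to 1.07). A mean for each group was fitted to all 36 libraries (glmQLFit, robust, 24 residual degrees of freedom) and contrasts were tested two-sided with glmQLFTest, with Benjamini-Hochberg adjustment over all genes tested. A call needed an adjusted p below 0.05 and a change of more than 2-fold. The SE was the absolute log2 fold change over the square root of F, and 95% intervals used it with the residual degrees of freedom. Exact permutation tests reassigned hormone and mock libraries within days, on log2 CPM with a prior count of 2 or on the log2 ratio of counts. The 2 genes and the gene lists were chosen with earlier results of these data known. By rule, the text names both genes, the 5 genes most like each by Pearson's r over group means, the wound, callus and AP2/ERF genes and the cell type markers. MA_10031781g0010, MA_3758g0010 and MA_922309g0010 were picked from the AP2/ERF list for fuller values after these were seen. The alternatives were RLE factors, library size alone, no filter, DESeq2, limma voom, a replicate block, fits of 1 day, other prior counts and pseudocounts, and each library left out. The test was tried on simulated counts first. Replicates of a group differed by more than sampling noise in every pair (chi-square per degree of freedom 6.92 to 16.3).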

Additional observations from a re-analysis of the deposited data

Results flagged for a closer look

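On the log2 scale, the effect of BAP on PaERF115-like differed between stems with and without IAA, by a test of the difference itself. This scale compares ratios, and the mock lay near 0. In mean CPM on day 15, BAP stood at 6.84 against 0.124 in mock. BAP+IAA stood at 21.9 CPM on that day, against 11.2 CPM under IAA. An interaction in CPM was not tested, so a weaker effect of BAP beside IAA was not shown on that scale. The interaction was -2.34 on day 10 and -4.70 on day 15 on the log2 scale (edgeR adjusted p = 0.0178 and 0.000232). On day 5 the fitted interaction was -6.15 (edgeR adjusted p = 0.0159), a value that depends on the count added by the fit because the mock held 0 counts. That of day 15 was called without any 1 library, at -5.06 to -4.48. That of day 10 was not called without mock day 10 replicate 3 (-1.80, edgeR adjusted p = 0.0829), IAA day 10 replicate 3 (-2.07, edgeR adjusted p = 0.0509) or BAP day 10 replicate 3 (-1.63, edgeR adjusted p = 0.103), or in a fit of day 10 alone (-2.34, edgeR adjusted p = 0.0736). That of day 5 was not called without BAP day 5 replicate 3 (edgeR adjusted p = 0.185) or by limma voom (adjusted p = 0.137).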

How the results depend on the processing

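With 3 libraries in a group, low counts and the spread of the libraries both limited PaERF115-like in mock stems, where 27 counts were found in 9 libraries (12, 7 and 2 of them in those of day 10). PaWIND1-like was limited by the wider spread of its libraries. Of 544 values recomputed under other settings, 533 kept their side of the threshold, and 552 of 564 values with 1 library left out did so. Values that were not called and changed sign are counted as kept. PaWIND1-like under BAP against mock on day 15, for example, ran from -0.70 to 0.88 with 1 library left out. No called value changed direction.

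For PaERF115-like, limma voom did not call BAP against mock on day 5 (2.82) or the interaction of day 5 (-3.62), and a fit of day 10 alone did not call the interaction of that day (-2.34, adjusted p = 0.0736). Library size alone called BAP+IAA against IAA on day 15 (1.02), and DESeq2 called the mock of day 10 against day 5 (5.31, with the mock of day 5 at 0). For PaWIND1-like, BAP+IAA against IAA on day 5 was called in a fit of day 5 alone (2.09) and by DESeq2 (2.05), and DESeq2 also called the interaction of day 10 (3.05), BAP+IAA against mock on day 15 (-1.62) and BAP+IAA on day 15 against day 5 (-1.76). The cause was not tested. Library size alone moved the median log2 fold change of all genes by up to 0.14 in size (IAA against BAP on day 10, -0.14).

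Replicate numbers were not taken to pair the samples, since 60 of 198 pairs with the same number had a correlation of deviations over 0.1 (mean 0.061, against -0.031 for pairs with other numbers). Of 36 libraries 23 had their highest mean correlation, over libraries of other groups, with those of their own number. That is more than an equal split over the 3 numbers would give, and it is a hint from the data and not from the design. With a replicate block, the interaction of PaWIND1-like on day 10 was 3.23 and called (adjusted p = 0.0442), and no other call of either gene changed.

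With 1 library left out, PaERF115-like ranged from 3.74 to 5.95 for BAP against mock on day 5, and its interaction from -6.71 to -4.50 on day 5 and from -3.07 to -1.63 on day 10. PaWIND1-like ranged from -2.82 to -1.86 for IAA against mock on day 5, from -2.00 to -0.95 for BAP+IAA against mock on day 15, from -2.29 to -0.95 for BAP+IAA against BAP on day 15, and from 2.46 to 5.03 for the interaction of day 10. Calls among these changed as given with each result. Without the filter on low counts, 4 in place of 5 of the AP2/ERF genes were called under IAA on day 10, and under BAP+IAA 5 in place of 6 on day 5 and 4 in place of 5 on day 10.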
